A study of Mus musculus with 8 samples.

Results

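The EGR, NAB and POU factors are 7 transcription factors and cofactors that set when a Schwann cell begins to wrap an axon, namely *Pou3f1*, *Pou3f2*, *Egr1*, *Egr2*, *Egr3*, *Nab1* and *Nab2*. They were taken by gene symbol from the 53090 genes measured in sciatic nerves that lacked NAE1 in Schwann cells and in control nerves. The rule used no values, but the members were chosen with earlier results of these data known. In *Nae1* cKO nerves 4 of the 7 were lower than in control nerves (*Nab1*, *Nab2*, *Pou3f1* and *Egr2*), 2 were higher (*Egr1* and *Pou3f2*), and *Egr3* did not pass the test. The calls of *Egr2* and *Pou3f2* were each lost in 6 of the 8 fits that left out 1 library. None of the 7 moved by more than 2-fold.

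Myelination by Schwann cells follows a relay of transcription factors. Axonal neuregulin and the adhesion receptor GPR126 (gene *Adgrg6*) raise OCT6, the product of *Pou3f1*, which with its close relative BRN2 (*Pou3f2*) and with SOX10 turns on EGR2 (also called KROX20). EGR2 then activates genes of myelin proteins and of lipid synthesis. NAB1 and NAB2 have no DNA-binding domain of their own. They bind EGR proteins, bring in the NuRD chromatin complex, and are needed both for myelination and for holding down genes of the immature Schwann cell. EGR1 and EGR3 recognize the same kind of DNA site as EGR2, are known as fast-induced (immediate-early) factors, and EGR1 is characteristic of Schwann cells that do not myelinate. NAE1 belongs to the E1 enzyme through which the ubiquitin-like protein NEDD8 enters neddylation.

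Each genotype was represented by 4 libraries, all from sciatic nerve at age 7 days. The labels call the controls WT and the mutants *Nae1* cKO. The mutants carried a Cre transgene and 2 floxed *Nae1* alleles (Nae1 f/f). Cre recombinase, expressed in Schwann cells, removes exon 4 of *Nae1* there from embryonic life on, so that the other cells of the nerve keep the gene. The controls were littermates without Cre and with 1 or 2 floxed alleles, hence no group controls for Cre itself. Whole-nerve RNA was sequenced, and fewer cells of a type cannot be told apart from less RNA per cell. Totals ran from 12962798 to 14766770 expected counts per library. Within each genotype the libraries were further apart than sampling noise, but nothing in the labels says that each came from a separate mouse, and the p values measure the spread between these libraries. *Nae1* itself lay at 77.7 to 89.8 CPM (counts scaled by TMM to 1000000 per library) in control nerves and at 43.8 to 57.2 CPM in *Nae1* cKO nerves (log2 fold change −0.68, SE 0.097, edgeR adjusted p = 2.8e-04).

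Whether a member changed was asked with edgeR's quasi-likelihood test over all 17090 genes with enough counts, and a gene was called at an adjusted p under 0.05. All 7 members passed the filter on low counts, and 6 were called. Of all genes tested, 26.4% were called, 14.1% as higher and 12.3% as lower in *Nae1* cKO nerves, and 6.75% were called with a change over 2-fold. The median log2 fold change was −0.51 over the 7 members and 0.0066 over all genes tested. The groups did not overlap in CPM for 3 members (*Nab1*, *Nab2* and *Pou3f1*), against 28.6% of all genes tested.

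**Figure D1:**
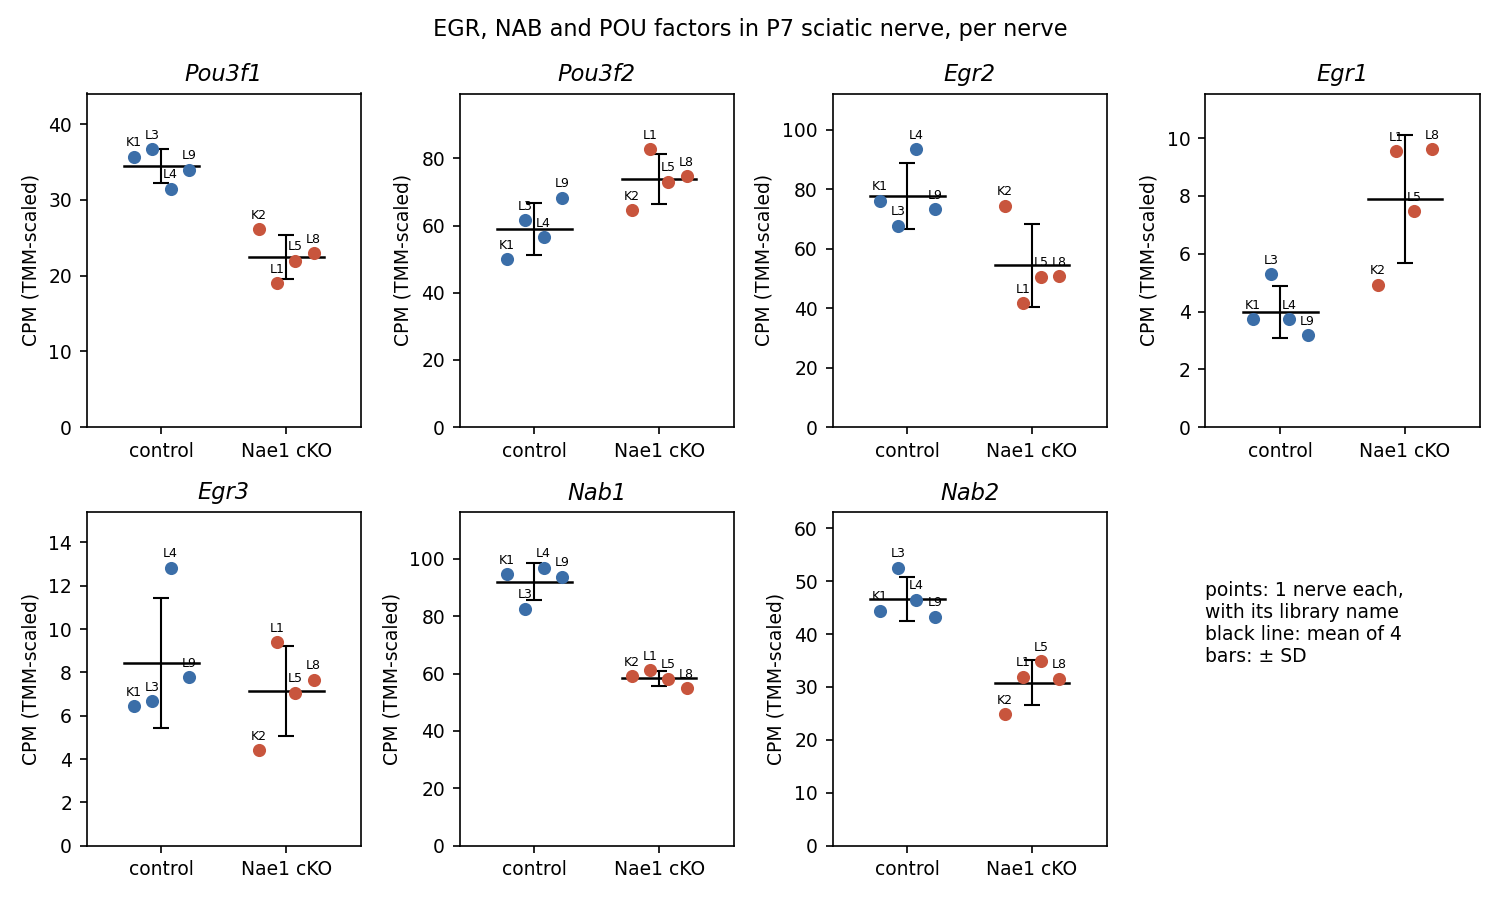
Level of each of the 7 factors in every nerve, in TMM-scaled CPM on a linear axis that starts at 0; each point is 1 library with its name, the black line is the mean of 4 and the bars are the SD. *Nab1*, *Nab2* and *Pou3f1* are lower in every *Nae1* cKO nerve than in any control nerve, whereas the *Nae1* cKO library K2 lies among the controls for *Egr2* and below the highest control for *Egr1*.

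The question put to the POU factors, which act first, was whether their RNA levels differed between the genotypes. *Pou3f1* (chromosome 4, 124656807 to 124660655, plus strand, GRCm38) was at 35.7, 36.7, 31.5 and 34.0 CPM in control nerves K1, L3, L4 and L9. In *Nae1* cKO nerves K2, L1, L5 and L8 it was at 26.1, 19.0, 21.96 and 22.9 CPM. The highest *Nae1* cKO value was below the lowest control value. The mean fell from 34.5 ± 2.29 to 22.5 ± 2.93 CPM (SD, n = 4 each), or by 0.62 on the log2 scale (SE 0.107, edgeR adjusted p = 0.00109).

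*Pou3f2*, whose product BRN2 can take over part of the work of OCT6 in Schwann cells, moved the other way. It lies on the same chromosome (22482780 to 22488366, minus strand) and was at 50.04, 61.5, 56.6 and 68.3 CPM in control nerves and at 64.6, 82.8, 73.1 and 74.6 CPM in *Nae1* cKO nerves. The groups overlapped, because control L9 exceeded *Nae1* cKO K2. The means were 59.1 ± 7.74 and 73.8 ± 7.43 CPM (SD, n = 4 each), and the log2 fold change of 0.32 (SE 0.106) passed the test narrowly (edgeR adjusted p = 0.0433). The call was lost when any of 6 of the 8 libraries was left out (adjusted p 0.065 to 0.127 for K1, L1, L3, L4, L5 or L8). Without both K1 and L4, the control libraries with the most muscle RNA, its log2 fold change was 0.18 (adjusted p = 0.37).

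Because the POU genes changed in opposite directions, the ratio between them is given for each nerve. The ratio of *Pou3f2* to *Pou3f1* TPM (transcript abundance scaled to 1000000 per library, which accounts for gene length) was 0.953, 1.14, 1.22 and 1.37 in control nerves. It was 1.68, 2.96, 2.26 and 2.22 in *Nae1* cKO nerves, so *Pou3f2* was the more abundant transcript in 3 of 4 control nerves and in all 4 *Nae1* cKO nerves. This ratio was picked after its parts had been seen and is given without a test. The third relative *Pou3f3* had no count in any nerve, and *Pou3f4* had 0 to 2 counts per nerve.

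*Egr2*, the factor on which myelin gene transcription depends, was at 76.2, 67.8, 93.5 and 73.3 CPM in control nerves K1, L3, L4 and L9. In *Nae1* cKO nerves K2, L1, L5 and L8 it was at 74.5, 41.7, 50.6 and 50.9 CPM. L1, L5 and L8 were below all controls, whereas K2 was above 2 of them. The means were 77.7 ± 11.1 and 54.4 ± 14.0 CPM (SD, n = 4 each), and on the log2 scale *Egr2* fell by 0.51 (SE 0.166, edgeR adjusted p = 0.042). Without K2 the log2 fold change was −0.71 (adjusted p = 4.99e-04). Leaving out any single other library except control L3 gave −0.54 to −0.41 and ended the call (adjusted p 0.0665 to 0.116). Without both K1 and L4 it was −0.38 (adjusted p = 0.276).

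The gene lies on the plus strand of chromosome 10 (67535475 to 67542188). The table of RefSeq promoter windows on GRCm38.p6, which run from 250 bases before to 50 bases after a transcript start, held 5 windows for *Egr2*. Windows were searched on both strands for an EGR site (GCGNGGGCG), a cyclic AMP response element (TGACGTCA), a CArG box (the core of the serum response element) and an octamer (ATGCAAAT), the sequence that POU proteins such as OCT6 recognize. The first of the windows with both an octamer and a CArG box is shown, because it is where a motif of the POU members falls beside their target gene, at chr10:67537619-67537918 (plus strand, 5′ to 3′), with the octamer and then the CArG box in capitals.

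Egr2: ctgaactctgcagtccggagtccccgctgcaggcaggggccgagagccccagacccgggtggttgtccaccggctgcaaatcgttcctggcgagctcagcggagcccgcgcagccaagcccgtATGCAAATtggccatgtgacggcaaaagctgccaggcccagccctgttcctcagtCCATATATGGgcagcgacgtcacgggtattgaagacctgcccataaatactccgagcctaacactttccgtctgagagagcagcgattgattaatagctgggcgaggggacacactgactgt

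The octamer is present in 1.74% and the CArG box in 1.63% of all 32851 windows in the table. Of the *Egr2* windows, 3 overlapping ones hold this pair, and a separate one held another CArG box. No *Egr2* window held the EGR site or the cyclic AMP response element, which are present in 5.55% and 1.79% of all windows. These matches describe the letters of the windows, and binding was not measured.

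*Egr1* and *Egr3* were far less abundant than *Egr2*. On the length-corrected TPM scale the control means were 19.3 ± 4.26 for *Egr2*, 0.90 ± 0.208 for *Egr1* and 1.75 ± 0.593 for *Egr3* (SD, n = 4). *Egr1*, on chromosome 18, was at 3.73, 5.29, 3.73 and 3.18 CPM in control nerves and at 4.93, 9.54, 7.48 and 9.62 CPM in *Nae1* cKO nerves. These levels rest on 40 to 73 counts per control nerve and 66 to 138 per *Nae1* cKO nerve. L1, L5 and L8 were above all controls, and K2 lay below control L3. *Egr1* was 1.98-fold higher (log2 fold change 0.99, SE 0.232, edgeR adjusted p = 0.00762), the largest change among the 7 members. It remained called without any single library, but not without both K1 and L4 (log2 fold change 0.89, adjusted p = 0.101).

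*Egr3* (chromosome 14, 70077203 to 70082614, plus strand) was at 6.43, 6.66, 12.8 and 7.79 CPM in control nerves and at 4.40, 9.41, 7.07 and 7.67 CPM in *Nae1* cKO nerves. The groups overlapped, with the highest value in control L4 and the lowest in *Nae1* cKO K2. *Egr3* was not called (log2 fold change −0.24, SE 0.264, edgeR adjusted p = 0.556), and without control L4 its log2 fold change was 0.04. *Egr4*, the remaining member of the family, had no count in any nerve.

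The cofactor genes *Nab1* and *Nab2* were both lower in each *Nae1* cKO nerve than in any control. *Nab1* (chromosome 1, 52457294 to 52500679, minus strand) was at 94.7, 82.6, 96.9 and 93.7 CPM in control nerves and at 59.1, 61.1, 58.2 and 54.9 CPM in *Nae1* cKO nerves. The lowest control exceeded the highest *Nae1* cKO nerve by more than the whole range of either group. The mean fell from 92.0 ± 6.38 to 58.3 ± 2.58 CPM (SD, n = 4 each), to a fold of 0.634 (log2 fold change −0.66, SE 0.0766, edgeR adjusted p = 6.09e-05).

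*Nab2* (chromosome 10, 127660918 to 127668568, minus strand) was at 44.4, 52.6, 46.5 and 43.3 CPM in control nerves. In *Nae1* cKO nerves it was at 24.9, 31.9, 34.9 and 31.6 CPM. The groups did not overlap, and K2 had the lowest value. The mean fell from 46.7 ± 4.13 to 30.8 ± 4.24 CPM (SD, n = 4 each), or by 0.60 on the log2 scale (SE 0.111, edgeR adjusted p = 0.00166). Both cofactor genes stayed called when each library was left out in turn and without K1 and L4 together.

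*Nab2* was the only member whose expected counts were not whole numbers. Its exons share 1050 bases with *Gm16229*, an antisense transcript, 151 bases with *Nemp1*, which encodes a nuclear envelope protein, and 40 bases with *Stat6*, all 3 on the opposite strand. The expected counts of *Nab2*, *Gm16229* and *Nemp1* added up to a whole number in all 8 nerves (within 0.015 counts), so fragments had been divided between genes of opposite strands. *Gm16229* was at 2.94 to 6.57 CPM in control nerves and at 0.767 to 2.86 CPM in *Nae1* cKO nerves (log2 fold change −1.65, SE 0.391, adjusted p = 0.00927), and *Nemp1* was lower as well (−0.75, SE 0.101, adjusted p = 1.87e-04). The values of *Nab2* and of *Gm16229* are therefore uncertain one by one. Their sum was 51.5 ± 4.50 CPM in control nerves and 32.3 ± 4.16 CPM in *Nae1* cKO nerves (SD, n = 4 each), a mean log2 difference of −0.68 (exact permutation p = 0.0286, two-sided, the lowest possible with 4 against 4). *Stat6* was lower by a small margin (−0.32, SE 0.101, adjusted p = 0.0325), a call that was lost in 6 of 8 leave-one-out fits (adjusted p up to 0.097). *Pou3f1* shares 330 bases with the antisense gene *Gm2164*, which had no count.

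The NAB genes are known targets of EGR proteins, and their promoter windows differed in the EGR site. The *Nab1* window at chr1:52500399-52500698 (minus strand, 5′ to 3′) is shown because it held 3 matches, in capitals.

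Nab1: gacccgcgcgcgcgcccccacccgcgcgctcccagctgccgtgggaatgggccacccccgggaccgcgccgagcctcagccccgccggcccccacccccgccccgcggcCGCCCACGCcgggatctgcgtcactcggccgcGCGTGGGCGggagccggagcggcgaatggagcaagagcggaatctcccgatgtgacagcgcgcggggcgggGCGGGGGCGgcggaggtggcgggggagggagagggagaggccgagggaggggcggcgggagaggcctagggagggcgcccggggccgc

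*Pou3f2*, which moved against *Nab1*, also held a match, near its start, in the window at chr4:22488317-22488616 (minus strand, 5′ to 3′), which is shown for comparison.

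Pou3f2: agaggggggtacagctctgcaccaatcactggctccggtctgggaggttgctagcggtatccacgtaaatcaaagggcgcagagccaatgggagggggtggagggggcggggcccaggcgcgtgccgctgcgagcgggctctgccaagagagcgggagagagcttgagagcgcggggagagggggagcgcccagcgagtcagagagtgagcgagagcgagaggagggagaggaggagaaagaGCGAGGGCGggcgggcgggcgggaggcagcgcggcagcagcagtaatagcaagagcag

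The *Nab2* window held none of the 4 motifs. Windows were found for 4 of the 7 members, and *Egr1*, *Egr3* and *Pou3f1* were not among them. Relatives within a family can lend each other reads where their sequences are identical. The longest identical stretch between transcripts was 44 bases for *Egr2* and *Egr3*, 46 for *Nab1* and *Nab2*, 38 for *Pou3f1* and *Pou3f2*, and 17 for *Egr1* with either relative. Fragments averaged 146.4 to 152.5 bases, longer than any of these stretches. The isoform-weighted transcript length, which differs between genotypes for 3.94% of genes with more than 1 transcript in the sense that the groups do not overlap, overlapped for each of the 5 such members (*Egr1*, *Egr2*, *Egr3*, *Nab1* and *Nab2*).

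On the TPM scale, which allows genes to be ranked, the control means ran from *Egr2* (19.3 ± 4.26) through *Nab1* (17.8 ± 2.52), *Nab2* (15.7 ± 2.70), *Pou3f2* (7.25 ± 1.52), *Pou3f1* (6.15 ± 0.457) and *Egr3* (1.75 ± 0.593) to *Egr1* (0.90 ± 0.208; SD, n = 4). The neighbours *Egr2* and *Nab1*, *Nab1* and *Nab2*, and *Pou3f2* and *Pou3f1* lay within their spread of each other. In *Nae1* cKO nerves *Egr2* (13.8 ± 0.411), *Nab1* (13.03 ± 3.01), *Nab2* (11.6 ± 3.63) and *Pou3f2* (10.2 ± 3.46) were close together, followed by *Pou3f1* (4.39 ± 0.639), and *Egr1* (2.09 ± 0.960) stood beside *Egr3* (1.74 ± 0.639). Protein-coding genes made up only 17.5% to 31.2% of the TPM of a library, with the lowest share in *Nae1* cKO K2, in which all 7 members had the lowest TPM of their group. With limma on log2(TPM + 1), of the 7 members only *Egr1* was called. When the TPM of protein-coding genes were rescaled to the same total in each nerve, the same 6 members were called in the same directions as with the count test (adjusted p 9.13e-04 to 0.0493).

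Ratios within a nerve do not depend on that scaling. The ratio of *Egr2* to *Sox10*, the lineage factor above it, was 0.808, 0.905, 0.856 and 1.11 in control nerves and 1.18, 0.979, 0.996 and 0.897 in *Nae1* cKO nerves. The groups overlapped, and the mean log2 difference was 0.14 (two-sided exact permutation test, p = 0.343). For *Pou3f1* to *Egr2* it was −0.04 (exact p = 0.714) and for *Nab2* to *Egr2* −0.03 (exact p = 0.914). For *Egr1* to *Egr2* the ratio was 0.0469, 0.0681, 0.0359 and 0.0409 in control nerves and 0.0627, 0.220, 0.136 and 0.182 in *Nae1* cKO nerves. That mean log2 difference of 1.55 missed the threshold, with K2 below control L3 (exact p = 0.0571), and adjusted over the 4 ratios the p values were 0.686, 0.914, 0.914 and 0.228 in the order given.

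**Figure D2:**
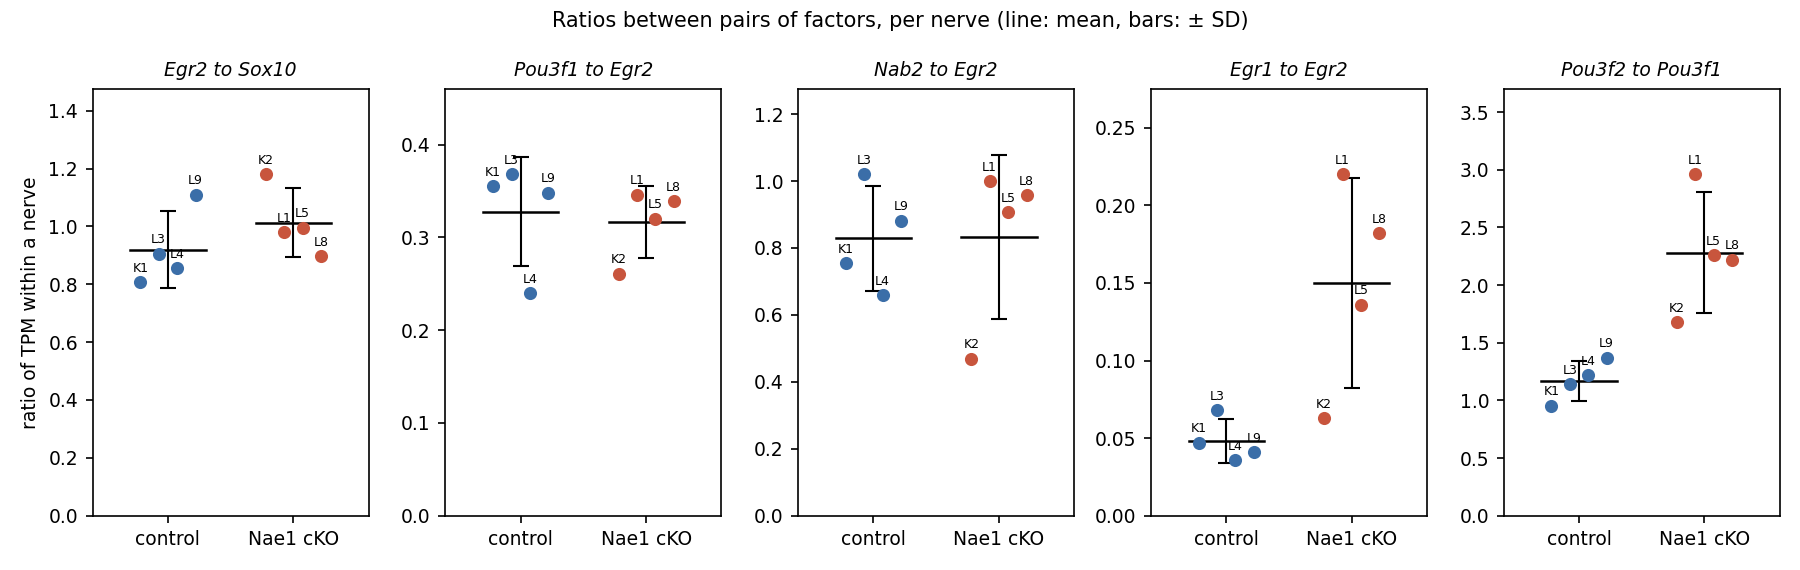
Ratios of TPM between pairs of factors in each nerve, on linear axes that start at 0; points are libraries with their names, lines are means and bars are the SD of 4 nerves. The first 3 ratios overlap between genotypes, *Egr1* to *Egr2* overlaps through K2 and L3 only, and *Pou3f2* to *Pou3f1* does not overlap (0.953 to 1.37 against 1.68 to 2.96).

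The question next was how genes that feed into these factors and genes that they control stood in the same nerves. Of 15 upstream inputs (ligand, receptors, kinases, calcineurin and NFAT genes and partner factors), 1 was higher, 2 were lower and 12 did not pass, with a median log2 fold change of −0.09. For this list and those that follow, the shares over all genes tested were 14.1% called higher and 12.3% called lower. *Nrg1*, the neuregulin gene, was at 0.217 to 1.17 CPM in control nerves and at 3.94 to 11.5 CPM in *Nae1* cKO nerves (log2 fold change 3.18, SE 0.472, edgeR adjusted p = 6.35e-04). Its control levels rest on only 3 to 16 counts per nerve. This is RNA from the cells of the nerve, and the neuregulin that axons present was not measured. *Sox10* was at 60.9 to 106 CPM in control nerves and at 38.9 to 58.7 CPM in *Nae1* cKO nerves (−0.74, SE 0.169, adjusted p = 0.00827). *Mapk3*, which encodes ERK1, was the third called gene (−0.46, SE 0.114, adjusted p = 0.0104). The receptor genes *Erbb2* (−0.14), *Erbb3* (−0.08) and *Adgrg6* (−0.22) had log2 fold changes that did not pass. The count of called inputs rose to 5 without K2, and without K1 and L4 only *Nrg1* was called, with *Sox10* at −0.48 (adjusted p = 0.0811) and *Mapk3* at −0.34 (adjusted p = 0.151). Of the 13 NuRD subunits that NAB proteins can recruit, *Chd4*, the main ATPase of the complex, was lower (−0.31, adjusted p = 0.0483) and *Rbbp7*, a histone-binding subunit, was higher (0.33, adjusted p = 0.032). The other 11 did not pass. No NuRD gene was called when any 1 of K1, L1, L3, L4, L5 or L8 was left out (adjusted p up to 0.0925 for *Chd4* and 0.0996 for *Rbbp7*), and without L9 *Chd4* was not.

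Genes that EGR2 activates fell with few exceptions. Of 16, 14 were lower, none was higher and 2 did not pass, and 13 of the 14 fell by more than 2-fold. The median log2 fold change over all 16 was −1.40, beside −0.51 for *Egr2* itself. *Hmgcs1* (−2.08, SE 0.106) and *Sqle* (−1.29, SE 0.0764), which encode enzymes of cholesterol synthesis, were among the 3 genes of the list with the smallest adjusted p values (1.38e-07 and 4.14e-07). The exceptions were *Gjb1*, which encodes connexin 32 (−0.39, SE 0.159, adjusted p = 0.094), and *Pmp2*, a fatty acid binding protein of myelin (0.22, SE 0.118, adjusted p = 0.193).

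Genes that EGR2 and the NAB proteins hold down were mixed. Of 6, 3 were higher, 1 was lower and 2 did not pass. *Id2*, an inhibitor of bHLH factors, was at 28.4 to 33.4 CPM in control nerves and at 51.7 to 98.1 CPM in *Nae1* cKO nerves (log2 fold change 1.26, SE 0.162, adjusted p = 1.82e-04). *Sox2*, a marker of immature Schwann cells, was at 11.98 to 16.2 CPM in control nerves and at 23.9 to 26.5 CPM in *Nae1* cKO nerves (0.89, SE 0.111, adjusted p = 1.05e-04), and *Ccnd1*, which encodes cyclin D1, rose by 0.70 (SE 0.146, adjusted p = 0.00426). *Rrad*, a small GTPase gene, was lower instead (−0.91, SE 0.301, adjusted p = 0.0419) at only 0.896 to 3.21 CPM, and lost its call in 6 of 8 leave-one-out fits (adjusted p up to 0.135). Without K1 and L4 only *Id2* and *Sox2* were called, with *Ccnd1* at 0.56 (adjusted p = 0.0666). *Id4* (0.39, adjusted p = 0.252) and *Jun* (−0.12, adjusted p = 0.377) did not pass.

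*Egr1* was next set beside the other immediate-early genes. Of 20, 18 had enough counts to be tested, 5 were higher (*Fos*, *Ier3*, *Klf4*, *Cyr61* and *Arc*), 2 were lower (*Ier5* and *Atf3*) and 11 did not pass, where 26.4% of all genes tested were called. Of these, *Fos*, *Cyr61* and *Arc* were named after their values were seen. *Ier3*, an apoptosis-related response gene, changed most (1.71, SE 0.214, adjusted p = 1.08e-04), followed in adjusted p by the factor gene *Klf4* (0.83, SE 0.132, adjusted p = 5.87e-04). *Atf3*, a stress-induced factor gene, was lower (−0.56, SE 0.141, adjusted p = 0.0108), as was *Ier5* (−0.50, SE 0.172, adjusted p = 0.0481). *Fos* was at 4.38 to 6.36 CPM in control nerves and at 6.57 to 8.78 CPM in *Nae1* cKO nerves (0.52, SE 0.159, adjusted p = 0.0291). The list count dropped from 7 to 4 without L4, L5 or L8 and to 2 without K1 and L4 together. *Fos*, *Arc* and *Ier5* each lost their call in 5 or 6 of the 8 leave-one-out fits, with adjusted p up to 0.0894, 0.0794 and 0.133. When libraries were scaled by their totals alone, which shifts the median of all genes by 0.163 on the log2 scale, all 7 calls in the list were higher and neither *Atf3* nor *Ier5* was among them.

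**Figure D3:**
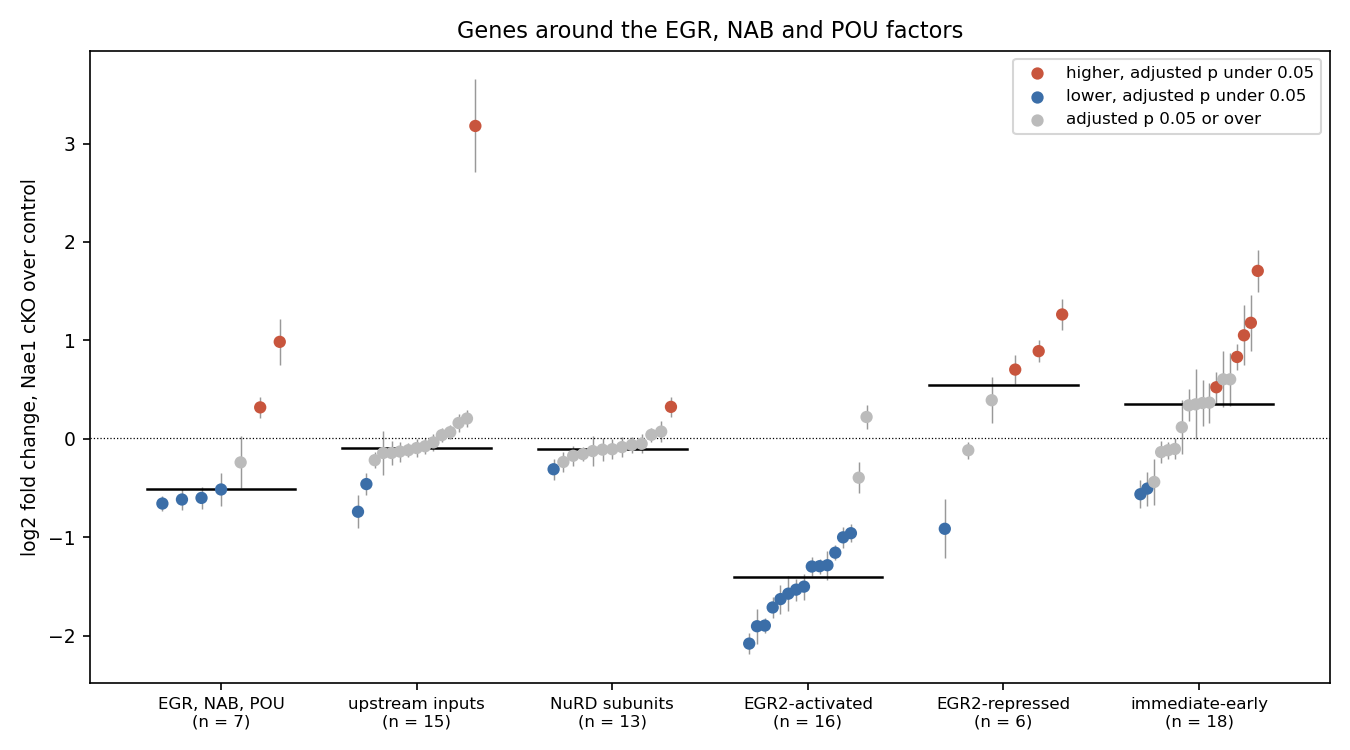
Log2 fold change of *Nae1* cKO over control for each tested gene, in 6 lists; red points were called higher, blue points lower and grey points did not pass, grey bars are the SE, black lines are list medians and the dotted line is the median of all genes tested (0.0066). The EGR2-activated genes lie lowest (median −1.40), and the 7 factors themselves spread from −0.66 to 0.99.

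Cell types of the nerve were checked by their markers, since whole nerves were used. Of 8 Schwann lineage markers, 2 were higher (*Cdh19* and *Lgi4*), 3 lower (*Sox10* and *Gpr37l1* among them) and 3 did not pass, and their summed level was 2972 to 3220 CPM in control and 2482 to 2841 CPM in *Nae1* cKO nerves. Of 10 macrophage markers, 8 were higher and none lower, with sums of 217 to 236 and 386 to 468 CPM. *Ctss*, a lysosomal protease gene, rose most among them (log2 fold change 1.85, SE 0.105, adjusted p = 2.66e-07). Of 6 fibroblast markers 4 were higher (*Dcn*, *Lum*, *Pdgfra* and *Col3a1*). All 6 summed to 13700 to 16780 and 17080 to 18930 CPM, mostly through *Col3a1* (11240 to 13080 and 13670 to 15180 CPM). Of 6 endothelial markers 3 were lower (*Kdr*, *Egfl7* and *Pecam1*), and all 6 summed to 212 to 267 and 161 to 197 CPM. *Lgi4*, *Col3a1* and *Pecam1* lost their calls in 7, 6 and 6 of 8 leave-one-out fits (edgeR adjusted p up to 0.135, 0.169 and 0.139). Of 4 neuron markers tested 2 were higher (*Tubb3* and *Snap25*), and the neurofilament genes *Nefl* (log2 fold change −1.04, adjusted p = 0.0832) and *Nefm* (−0.56, adjusted p = 0.457) did not pass. The sums over all 6 were 10.4 to 16.7 and 16.2 to 23.5 CPM. The 6 T and B cell markers summed to 0.724 to 1.63 CPM in any nerve, and none had enough counts to be tested. The part of these cell types in the values of *Egr1*, *Egr3* and the other members was not tested.

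Skeletal muscle markers varied within the controls. The 10 summed to 1272 CPM in K1 and 2093 CPM in L4, to 355 CPM in L3 and 125 CPM in L9, and to 62.6 to 175 CPM in *Nae1* cKO nerves, and 3 of the 10 were called lower (*Tnnc2*, *Myh4* and *Actn3*). Without K1 and L4, *Nab1* (log2 fold change −0.60, adjusted p = 0.00314), *Nab2* (−0.64, adjusted p = 0.0178) and *Pou3f1* (−0.66, adjusted p = 0.0117) were still called. *Egr1* (0.89), *Egr2* (−0.38) and *Pou3f2* (0.18) were not. With fewer controls that fit called fewer genes of any kind, 2402 beside 4510 with all libraries. Whether muscle RNA or the loss of controls ended the 3 calls was not tested.

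Some genes followed a member closely over the 8 nerves, by the root mean square difference of log2 CPM centred on the control mean, among 10765 protein-coding genes of at least 5 CPM. Nearest to *Nab1* were *Hemk1* (0.0503), *Cyb5d2* (0.0563) and *B4galt6* (0.0583). Nearest to *Pou3f1* were *Entpd2* (0.0481), *Smox* (0.0549) and *Pccb* (0.0641), to *Nab2* *Syn3* (0.0739), *Insc* (0.0866) and *Twnk* (0.0926), and to *Pou3f2* *Rbms3* (0.0468), *Xpo1* (0.0579) and *Rhobtb1* (0.064). *Egr2* had *Tmbim1* (0.0989), *Rhbdf2* (0.1003) and *Tcp11l2* (0.114), *Egr1* had *Incenp* (0.139), *Cep55* (0.146) and *Wdhd1* (0.153), and *Egr3* had *Zfp280b* (0.155), *Tob1* (0.159) and *Nicn1* (0.16). No member was among the 3 nearest genes of another.

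**Figure D4:**
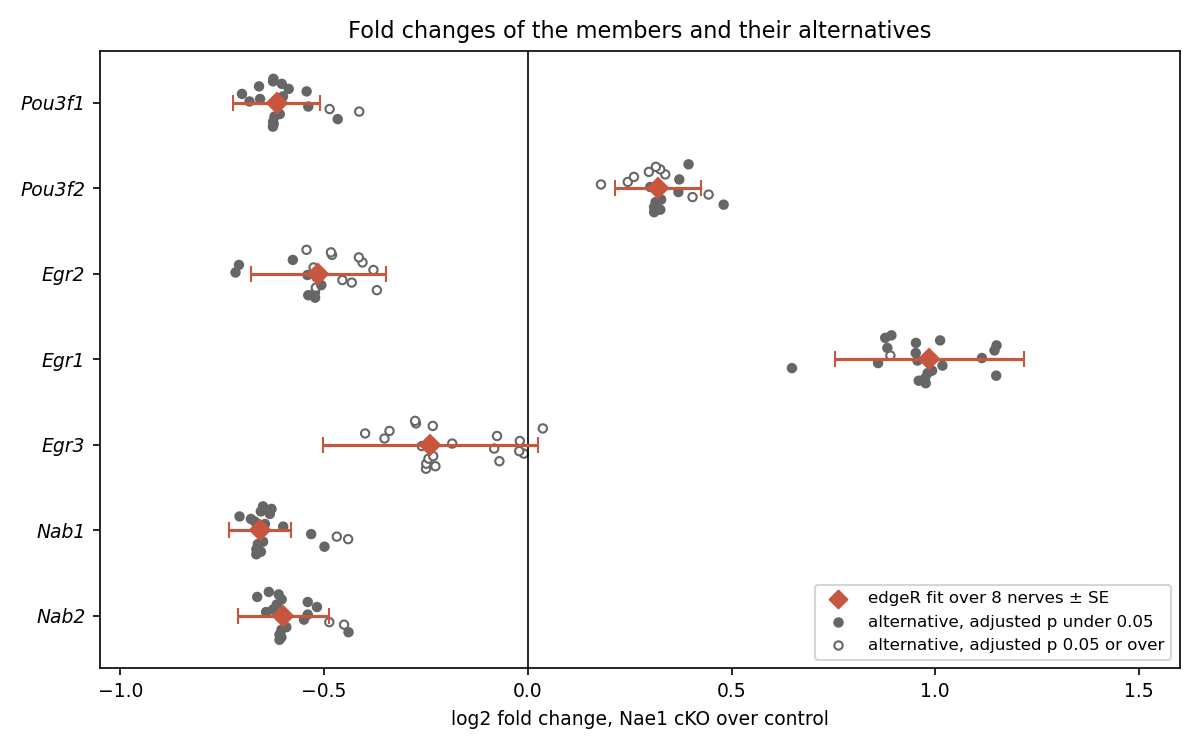
Log2 fold change of each member in the edgeR fit over 8 nerves (diamond, ± SE) and in 20 alternatives (circles, filled where the adjusted p is under 0.05). *Nab1*, *Nab2* and *Pou3f1* stay below 0 and are filled in 18 of 20 alternatives each, and *Egr3* is never filled.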

How the data were processed

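Total RNA of whole sciatic nerves was depleted of ribosomal RNA and sequenced with a stranded TruSeq kit, in 4 control and 4 *Nae1* cKO libraries. For each library the authors deposited an RSEM table of 53090 genes with expected counts (estimated, unscaled fragments per gene), TPM (scaled by the authors for transcript length to a sum of 1000000), FPKM (scaled by the authors to depth and length, not used here) and transcript lengths. In the submitters' processing notes the tools are STAR, RSEM and FastQC 0.11.5 and the build is GRCm38, whereas the study's methods name TopHat, mm10 and Cuffdiff. The annotation release and the strand option of RSEM were not given in the sources used here. Coordinates were taken from GENCODE vM21, to which 52403 identifiers matched, and promoter windows from RefSeq (GRCm38.p6).

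Expected counts were rounded to whole numbers, filtered with filterByExpr (17090 genes), scaled by TMM and compared with edgeR 4.0.16 (quasi-likelihood, robust, no covariates; R 4.3.3) with Benjamini-Hochberg adjustment over all genes tested. The threshold for a call was an adjusted p under 0.05. Ratios were compared on log2 TPM without a pseudocount by two-sided exact permutation tests (smallest p 0.0286) in scipy. The common biological coefficient of variation was 0.158, and chi-square per gene between libraries of a group was 4.07 to 56.9. On simulated counts with these depths and means (16866 genes), 81 of 100 genes changed 2-fold and 99 of 100 changed 4-fold were recovered, and 14 of 194 calls were false (7.22%). Changes under 2-fold, such as those of the members, were not simulated. Nor was a share of changed genes as large as the 26.4% called in the data.

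Alternatives were DESeq2 1.42.0, limma-voom 3.58.1, other scalings and filters, limma on TPM, the letter of the library names (a term, or L alone), control libraries K1 and L4 left out, and each library left out. Protein-coding TPM was added after seeing the data. Named genes were the 7 members, *Nae1*, genes overlapping a member, in each list the 3 called genes of smallest adjusted p, called genes moving against their list, and the 3 protein-coding genes nearest to each member. Some genes that this rule gives are not reported here. Other named genes were chosen after their values were seen. The members and lists were chosen with earlier results of these data known.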

Additional observations from a re-analysis of the deposited data

Results flagged for a closer look

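In 32 groups of 4 values, each for 1 quantity in 1 genotype, 4 had a library whose gap to the nearest of the others was large for the range of the group. Chance flags about 1 in 20 groups. Control L4 had a low log2 ratio of *Pou3f1* to *Egr2* TPM (−2.06), which goes with the highest *Egr2* level of all nerves there (93.5 CPM). The *Nae1* cKO library K2 accounted for the other 3. Its log2 ratio of *Nab2* to *Egr2* was −1.09, its summed level of EGR2-repressed genes was 388 CPM beside 546 to 576 CPM in L1, L5 and L8, and its summed level of immediate-early genes was 402 CPM beside 310 to 313 CPM. Within that last sum *Klf6* was at 188 CPM in K2 beside 129 to 135 CPM, and *Cyr61* at 49.6 beside 21.6 to 26.4 CPM. *Junb*, *Ier2*, *Dusp1*, *Nr4a1*, *Btg2*, *Zfp36*, *Klf2* and *Klf4* were also highest in K2 among the *Nae1* cKO nerves. The list did not rise as a whole there, since *Fos*, *Fosb*, *Jun*, *Ier5*, *Myc* and *Arc* were lowest in K2. K2 also had the lowest share of TPM in protein-coding genes (17.5%), and for *Egr1* and *Egr2* it was the *Nae1* cKO nerve nearest to the controls. The part of that share in the values of K2 was not tested.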

How the results depend on the processing

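*Nab1*, *Nab2* and *Pou3f1* were called lower in 18 of 20 alternatives each, the exceptions being limma on log2(TPM + 1) and log2(TPM + 0.1), in which 1 member (*Egr1*) was called. *Egr1* stayed called in 19 of 20, *Pou3f2* in 11 and *Egr2* in 9, *Egr2* being lost also with library totals (−0.37, adjusted p = 0.0618) and no filter on low counts (−0.52, adjusted p = 0.0904). *Egr3* ran from −0.399 to 0.0369 with 1 library left out, the upper value without control L4. Library totals and TPM moved the split of all calls from 53.5% higher to 75.5% and 75.4%.

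The number of members called was 4 to 6 when 1 library was left out and 3 without K1 and L4. Over all genes, the fit without K1 and L4 called 2402, beside 4510 with all libraries. In the same order of alternatives, EGR2-activated genes gave 14 to 15 and never moved, though 1 of the 15 was called higher without control L9 and with library totals. EGR2-repressed genes gave 3 to 4 and 2, and 2 with log2(TPM + 0.1). Immediate-early genes gave 4 to 8 and 2, and 4 and 3 with the TPM fits. Upstream inputs gave 3 to 5 and 1, 1 with either TPM fit, and 5 with letter L alone. NuRD subunits gave 0 to 2 and 0, 0 with either TPM fit, and 1 each with library totals, letter L alone and protein-coding TPM. The log2 difference for *Pou3f1* to *Egr2* was −0.182 to 0.052 with 1 library left out, 0.0183 with 1 TPM added and 0.10 with letter L alone. For *Nab2* to *Egr2* it was −0.14 to 0.22 and 0.18 with letter L alone. For *Egr1* to *Egr2* it passed with 1 TPM added (1.08, exact permutation p = 0.0286), and *Egr2* to *Sox10* kept its direction and missed the threshold throughout. No paired analysis was possible because the libraries of the genotypes share no replicate names. *Egr1* (40 to 138 counts per nerve) and *Egr3* (59 to 179) had the fewest counts and the largest standard errors of the 7 members.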
